A study of Mus musculus with 7 samples.

Results

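The genes described here are 33 mouse genes of cholesterol and fatty acid synthesis and of its control. They were measured by bulk RNA-seq in purified Paneth cells (PCs), which sit at the bottom of the crypts of the small intestine and secrete antimicrobial granules. The genes were taken from a given list of symbols, and each was found under its Ensembl identifier among the 55414 identifiers of the count table. All 33 passed the filter on low counts and are among the 14329 genes tested. The mice were of the strain C57BL/6J and had been injected with phosphate-buffered saline (PBS) or tumour necrosis factor (TNF), a pro-inflammatory cytokine. PCs were sorted 15 h after the injection, which gave 3 PBS and 4 TNF libraries, each from a different mouse per the series description. For the age and sex of the mice, the TNF dose and the sorting markers, no entry was found in the sources used here.

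Animal cells make cholesterol from acetyl-CoA through mevalonate, farnesyl diphosphate, squalene and lanosterol, and they make saturated fatty acids from acetyl-CoA through malonyl-CoA. The transcription factors SREBP-1 and SREBP-2, encoded by Srebf1 and Srebf2, activate many of the enzyme genes. When sterols are scarce, SCAP escorts the SREBPs from the endoplasmic reticulum to the Golgi, where proteases release their active part, whereas the INSIG proteins hold them back when sterols are abundant. The liver X receptors (LXRs), encoded by Nr1h3 and Nr1h2, are activated by oxidised sterols and induce genes of cholesterol efflux. The small intestine takes up dietary cholesterol and is also a site of cholesterol synthesis, and secretory cells such as PCs need membrane lipid for their endoplasmic reticulum and granules.

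Total counts per library ran from 15511455 to 19193721. The PC markers summed to between 188768 and 318189 CPM (the count of a gene relative to the size of its library, with sizes adjusted by the TMM method) in the PBS libraries and to between 195166 and 365615 CPM in the TNF libraries. These overlapping sums rest mostly on Lyz1, Defa24 and other abundant genes that were not called. Of the 10 PC markers, Nupr1, Defa21, Defa22 and Mmp7 were called higher (log2 fold changes 2.49, 1.84, 1.76 and 0.88) and Clps was called lower (-2.27). Markers of other epithelial cells were present in both groups. The sums of 10 enterocyte markers were 1206 to 1419 CPM after PBS and 350 to 415 CPM after TNF, those of 6 tuft cell markers 1413 to 2307 and 265 to 682, and those of 5 stem cell markers 2546 to 3693 and 998 to 1627. For 7 goblet cell markers the sums were 11176 to 20555 and 9167 to 10486, with the highest in PBS replicate 1. These sums rest mostly on Muc2 and Spink4, which were not called, whereas Fcgbp, Zg16, Clca1 and Tff3 were called lower, with log2 fold changes from -5.62 for Fcgbp to -2.14 for Tff3. For 7 enteroendocrine markers the sums were 28.8 to 96.2 and 22.5 to 32.2. Leukocyte markers reached 13 to 28.1 and 16.8 to 20.1 CPM with Cd3e at 0. Within them S100a9 was at 0 in every PBS library and at 5.765, 6.84, 3.21 and 7.85 CPM in the TNF libraries, and Ptprc was called lower (log2 fold change -0.95). The sums of stromal and endothelial markers were 2.39 to 2.72 and 8.09 to 9.91. The latter difference was that of Vwf alone (2.3 ± 0.204 and 8.53 ± 0.844 CPM), and means of the other 5 markers of that list were at most 0.131 CPM. The erythroid sums were at most 0.212 and 0.236 CPM, with Hba-a1, Hba-a2 and Hbb-bs at 0. The part of these markers in the results below was not tested, and in bulk samples fewer cells of a type and less RNA per cell cannot be told apart.

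After TNF the pathway did not move in a single direction. Of the 33 genes, 13 were higher after TNF (39.4%) and 8 were lower (24.2%) at an edgeR adjusted p under 0.05, and 12 did not pass the test. Among all genes tested, 29.5% were called higher, 30.1% lower and 59.6% in either direction, so the share of 63.6% among these genes is close to the background. The median log2 fold change was 0.33 for the 33 genes and 0.0017 for all genes tested. The median of the 33 genes moved with single libraries, to 0.49 without PBS replicate 1 and to 0.15 without PBS replicate 2, and it was 0.17 with scaling by total counts. At least 2-fold higher were 5 genes (15.2%, against 14.4% of all genes), namely Fdps, Msmo1, Hsd17b7, Sc5d and Elovl6. At least 2-fold lower were 4 genes (12.1%, against 17.2%), namely Mvk, Tm7sf2, Nr1h3 and Scd2. Over both directions, 31.6% of all genes passed this stricter rule. The CPM ranges of the groups did not overlap for 20 genes (60.6%, against 60.7% of all genes). Scaling by total counts moved the median of all genes to -0.16 and gave 10 genes higher and 8 lower among the 33, so a direction here is relative to the TMM scaling.

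**Figure D1:**
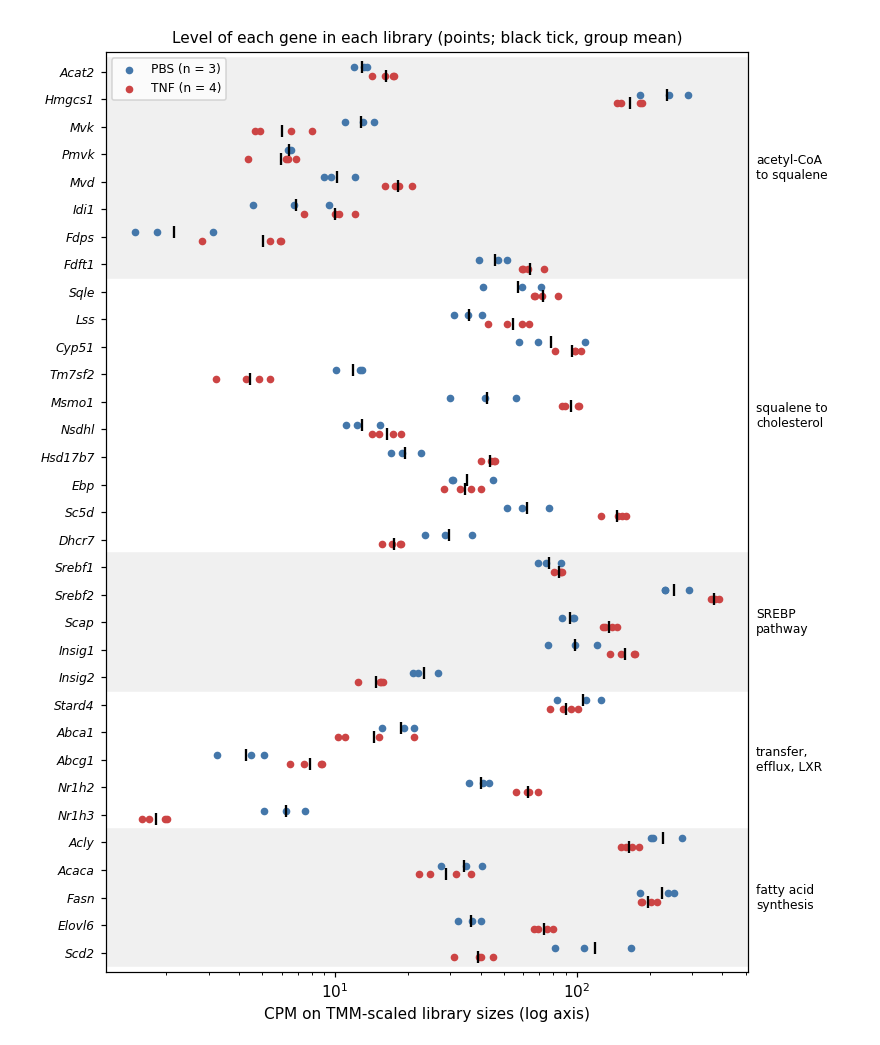
Level of each gene in each library, in CPM on TMM-scaled library sizes (log axis), with genes grouped by role from top to bottom. Each point is a library (3 PBS, 4 TNF) and black ticks are group means. The TNF points lie above all PBS points for 13 genes and below them for 7 (60.6% together, against 60.7% of all genes tested).

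**Figure D2:**
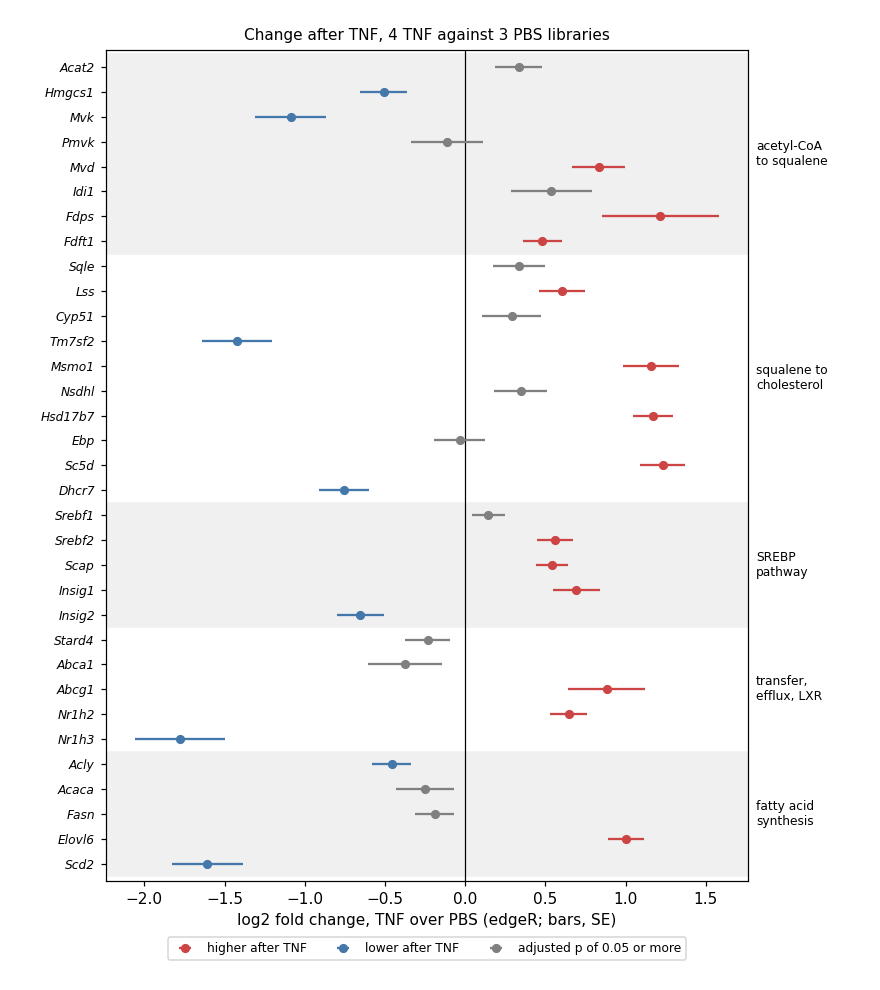
log2 fold change of TNF over PBS for the same 33 genes in the same order, from edgeR, with SE as bars. Within each role group some genes lie to the right and others to the left of 0, from -1.78 for Nr1h3 to 1.23 for Sc5d.

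SREBPs bind sterol regulatory elements and E-boxes in promoters, often beside a CCAAT box that binds NF-Y. To show which of these letters lie before the starts of genes that moved in different directions, the 250 bases before each RefSeq start (GRCm38.p6) were searched on both strands. A start was found for 27 of the 33 genes. The sterol regulatory element was searched as TCACNCCAC, the E-box as CACGTG, the CCAAT box as CCAAT and the GC box as GGGCGG, and the LXR element was searched as an exact match to the direct repeat that LXRs are known to bind. No motif was contained in another, and matches that overlapped were counted separately. The sterol regulatory element was found for 1 gene, Hmgcs1, and for 1.22% of all 27025 genes in the table. That table includes genes that were not tested here, whereas all 33 genes passed the filter on low counts. The shares of all genes given in this paragraph are thus from an unlike set. E-boxes were found for 6 genes (22.2%, against 6.86% of all genes), namely Hsd17b7, Insig1, Sc5d, Scap, Dhcr7 and Abca1. Of these 6, the first 4 were higher after TNF, Dhcr7 was lower and Abca1 did not pass the test. CCAAT boxes were found for 19 genes (70.4%, against 37.5%), which include 7 of the 10 higher, 5 of the 7 lower and 7 of the 10 not called. GC boxes were found for 21 genes (77.8%, against 35.4%) and the LXR element for 0 genes (against 0.0148%). The exact LXR repeat was found for only 4 genes of the table, so 0 was the likely result and says nothing about these genes. A match is a description of letters in this window and not a binding site. Likewise, the lack of an exact match does not show that a site is absent. Below are the 200 bases before the start for 7 genes whose results are given in the following paragraphs, 5′ to 3′ on the strand of the gene, chosen to show genes that rose and fell side by side. Capitals mark the sterol regulatory element, E-boxes and CCAAT boxes (CCAAT or, on the other strand, ATTGG). For Insig2, which has 3 starts in the table, the stretch is from the only start with a CCAAT box. Hmgcs1 and Insig1 each have a CCAAT box in the 250 bases searched that lies outside the printed stretch.
Hmgcs1 (chr13:119690151-119690350, plus strand): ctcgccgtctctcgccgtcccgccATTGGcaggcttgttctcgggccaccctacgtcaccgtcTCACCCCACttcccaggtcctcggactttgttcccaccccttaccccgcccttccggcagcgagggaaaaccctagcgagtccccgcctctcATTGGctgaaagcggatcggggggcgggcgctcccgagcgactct
Mvk (chr5:114444069-114444268, plus strand): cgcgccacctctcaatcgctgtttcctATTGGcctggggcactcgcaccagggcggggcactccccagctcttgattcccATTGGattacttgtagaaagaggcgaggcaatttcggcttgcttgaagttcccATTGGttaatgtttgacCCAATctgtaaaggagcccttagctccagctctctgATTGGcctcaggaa
Msmo1 (chr8:64733579-64733778, minus strand): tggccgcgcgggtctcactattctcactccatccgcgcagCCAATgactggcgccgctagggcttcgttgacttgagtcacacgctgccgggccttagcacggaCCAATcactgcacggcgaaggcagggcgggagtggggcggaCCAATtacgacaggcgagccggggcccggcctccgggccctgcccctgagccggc
Hsd17b7 (chr1:169969206-169969405, minus strand): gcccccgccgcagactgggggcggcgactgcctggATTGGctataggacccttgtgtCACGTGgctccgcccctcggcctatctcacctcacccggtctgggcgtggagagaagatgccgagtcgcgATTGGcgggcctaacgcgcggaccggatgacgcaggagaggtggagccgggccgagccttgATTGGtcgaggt
Sc5d (chr9:42264301-42264500, minus strand): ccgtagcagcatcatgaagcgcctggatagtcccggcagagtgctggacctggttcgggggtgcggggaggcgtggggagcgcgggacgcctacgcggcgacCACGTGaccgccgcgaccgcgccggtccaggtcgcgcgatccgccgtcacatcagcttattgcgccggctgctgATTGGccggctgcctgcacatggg
Insig1 (chr5:28071212-28071411, plus strand): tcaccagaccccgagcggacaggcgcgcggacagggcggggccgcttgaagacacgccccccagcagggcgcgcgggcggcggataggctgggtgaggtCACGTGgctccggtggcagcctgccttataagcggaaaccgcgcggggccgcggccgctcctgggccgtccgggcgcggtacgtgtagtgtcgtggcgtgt
Insig2 (chr1:121332590-121332789, minus strand): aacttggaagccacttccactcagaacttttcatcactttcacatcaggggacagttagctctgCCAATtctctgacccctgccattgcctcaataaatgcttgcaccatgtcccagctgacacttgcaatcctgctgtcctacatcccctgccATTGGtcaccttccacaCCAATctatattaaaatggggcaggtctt
Of the genes that fell, Mvk has 5 CCAAT boxes in its stretch, Insig2 has 3 and Hmgcs1 has 2. Of those that rose, Msmo1 and Hsd17b7 have 3 each, Sc5d has 1 and Insig1 has 0. These genes were picked, so no contrast by direction is drawn.

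From acetyl-CoA to squalene, 8 genes were measured, of which 3 were higher (37.5%), 2 lower (25%) and 3 not called. The shares of all genes tested were 29.5% higher and 30.1% lower. Hmgcs1 and Mvk, which act before and after the formation of mevalonate, were lower, and Mvd, Fdps and Fdft1, which act further on, were higher. Hmgcs1 (ENSMUSG00000093930, chromosome 13, 120151915 to 120170470 in GRCm39), which encodes HMG-CoA synthase, had 287, 183 and 241 CPM in the PBS libraries and 182, 146, 186 and 152 CPM in the TNF libraries. The PBS replicate 2 value lies inside the TNF range, so the groups overlap. The log2 fold change of Hmgcs1 was -0.51 ± 0.15 (SE, edgeR adjusted p = 0.00834), and the call was lost without PBS replicate 1 (-0.34, adjusted p = 0.0538). Mevalonate kinase, encoded by Mvk (ENSMUSG00000041939, chromosome 5, 114582267 to 114601803), had 14.5, 11 and 13.1 CPM after PBS and 4.87, 6.54, 8.03 and 4.65 CPM after TNF. Every TNF library was below every PBS library, and the log2 fold change was -1.09 ± 0.22 (adjusted p = 0.000691). The next kinase of the chain, encoded by Pmvk, had 6.46 ± 0.0943 CPM (SD, n = 3) and 5.98 ± 1.11 CPM (SD, n = 4), with a log2 fold change of -0.11 ± 0.22 and a 95% interval of -0.69 to 0.47 (adjusted p = 0.688).

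Mvd (ENSMUSG00000006517, chromosome 8, 123160336 to 123170324) encodes the decarboxylase that makes isopentenyl diphosphate, the building block of all isoprenoids. Its level was 9.58, 9.01 and 12.1 CPM in the PBS libraries and 20.8, 16.15, 17.6 and 18.3 CPM in the TNF libraries, without overlap (log2 fold change 0.83 ± 0.16, adjusted p = 0.000564). Fdft1 (ENSMUSG00000021273, chromosome 14, 63382189 to 63417027), which encodes squalene synthase, the enzyme that commits farnesyl diphosphate to sterols, rose from 45.9 ± 5.95 to 64 ± 6.49 CPM (log2 fold change 0.48 ± 0.12, adjusted p = 0.00347). Its exons share 1184 bases with those of Ctsb on the opposite strand, whose own log2 fold change was 1.315 (adjusted p = 1.97e-07), and strand use in counting is not known, so the part of Ctsb reads in the value was not tested. Fdps, which encodes farnesyl diphosphate synthase, had low counts, 119 in the PBS libraries together and 350 in the TNF libraries. Its CPM values were 1.48, 1.83 and 3.13 after PBS and 5.93, 5.95, 5.355 and 2.81 after TNF, with TNF replicate 4 below PBS replicate 3 (log2 fold change 1.22 ± 0.36, adjusted p = 0.0102). Scaling by total counts ended the calls of Fdft1 (0.33, adjusted p = 0.126) and Fdps (1.04, adjusted p = 0.0621). Acat2, the cytosolic acetoacetyl-CoA thiolase, and Idi1, the isopentenyl diphosphate isomerase, had log2 fold changes of 0.33 ± 0.15 and 0.54 ± 0.25 (adjusted p = 0.0651 and 0.0814). Acat2 shares 322 exon bases with Tcp1 on the opposite strand, which rose (log2 fold change 0.76). It passed the threshold without TNF replicate 2 (0.40, adjusted p = 0.04). Idi1 passed it without PBS replicate 1 (0.82, 0.0196) or TNF replicate 2 (0.66, 0.0479).

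From squalene to cholesterol, 10 genes were measured, of which 4 were higher (40%), 2 lower (20%) and 4 not called. Among all genes tested, 29.5% were higher and 30.1% lower. Msmo1, Hsd17b7 and Sc5d rose by at least 2-fold and act at different steps on the sterol rings after lanosterol. Msmo1 (ENSMUSG00000031604, chromosome 8, 65170603 to 65186830) encodes the methylsterol oxidase that begins the removal of the ring methyl groups left after lanosterol demethylation. It had 56.2, 29.8 and 41.7 CPM in the PBS libraries and 89.7, 86.9, 101 and 102 CPM in the TNF libraries. The PBS libraries were spread widely, but all lay below the TNF libraries (log2 fold change 1.16 ± 0.17, adjusted p = 8.61e-05). Hsd17b7 (ENSMUSG00000026675, chromosome 1, 169777093 to 169796813), the ketoreductase that completes this removal, had 22.6, 17 and 19 CPM after PBS and 45.6, 44.1, 45.7 and 40.05 CPM after TNF. The ranges are far apart, and the log2 fold change was 1.17 ± 0.13 (adjusted p = 2.89e-06). Nsdhl, the dehydrogenase that acts between them, had 12.9 ± 2.22 and 16.4 ± 2.05 CPM and was not called (log2 fold change 0.35 ± 0.17, adjusted p = 0.0893), although it passed the threshold without PBS replicate 1 (0.49, 0.0381) or TNF replicate 1 (0.41, 0.0485).

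Sc5d (ENSMUSG00000032018, chromosome 9, 42162891 to 42175605) encodes the sterol desaturase that acts on lathosterol near the end of the chain. It had 76.6, 59.2 and 51.6 CPM in the PBS libraries and 125.5, 154, 148 and 159 CPM in the TNF libraries (log2 fold change 1.23 ± 0.14, adjusted p = 4.28e-06). The enzyme that follows, encoded by Dhcr7 (ENSMUSG00000058454, chromosome 7, 143376740 to 143402149), converts the product of Sc5d to cholesterol. Dhcr7 was lower in every TNF library, with 37, 23.5 and 28.6 CPM after PBS and 15.7, 17.3, 18.6 and 18.8 CPM after TNF (log2 fold change -0.75 ± 0.15, adjusted p = 0.000812). Tm7sf2 (ENSMUSG00000024799, chromosome 19, 6112851 to 6118403), a sterol reductase that acts after lanosterol demethylation, fell more, from 12.9, 12.7 and 10.1 to 5.37, 4.83, 4.28 and 3.21 CPM (log2 fold change -1.42 ± 0.22, adjusted p = 7.07e-05). Its exons share 532 bases with those of Vps51 on the same strand, which had a log2 fold change of -0.16 (adjusted p = 0.329). Lbr, which encodes a protein with the same reductase activity and was singled out after its values were seen, had 97.7 ± 5.32 and 95.3 ± 6.745 CPM and a log2 fold change of -0.04 ± 0.10 (adjusted p = 0.765). Per kb of the annotated canonical transcript, Tm7sf2 lay at 7.97 ± 1.02 CPM per kb after PBS and 2.97 ± 0.621 after TNF, and Lbr at 19 ± 1.03 and 18.5 ± 1.31.

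Lss, which encodes lanosterol synthase, rose from 35.75 ± 4.79 to 54.3 ± 9.06 CPM (log2 fold change 0.60 ± 0.14, adjusted p = 0.00243). This call was lost with scaling by total counts (0.45, adjusted p = 0.102). Sqle, the squalene epoxidase of the pathway, had 71.2, 41.1 and 59.1 CPM after PBS and 71.6, 67, 83.4 and 66.5 CPM after TNF. Cyp51, the lanosterol demethylase, had 108, 57.7 and 68.8 CPM after PBS and 98.7, 81.5, 104 and 98.2 CPM after TNF. In both genes PBS replicate 1 lies within or above the TNF range while PBS replicates 2 and 3 lie below it. Neither was called (log2 fold changes 0.34 ± 0.16 and 0.29 ± 0.18, adjusted p = 0.0874 and 0.193), but without PBS replicate 1 both were (Sqle 0.53, adjusted p = 0.0118, and Cyp51 0.60, 0.00193). Exons of Cyp51 share 1253 bases with those of Akap9 on the opposite strand, which fell (log2 fold change -0.56). Without the filter on low counts Sqle and Cyp51 passed the threshold as well (adjusted p = 0.0198 and 0.049). Ebp, a sterol isomerase, had 35.3 ± 8.26 and 34.4 ± 5.14 CPM (log2 fold change -0.03 ± 0.16, 95% interval -0.45 to 0.38, adjusted p = 0.868), and its estimate changed sign without PBS replicate 1 or TNF replicate 1.

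Of the 5 genes of the SREBP pathway, 3 were higher (60%), 1 lower (20%) and 1 not called. Among all genes tested, 29.5% were higher and 30.1% lower. Srebf2 (ENSMUSG00000022463, chromosome 15, 82031382 to 82093201), whose product favours sterol genes, had 292, 231 and 232 CPM in the PBS libraries and 364, 387, 373 and 359.9 CPM in the TNF libraries. All TNF libraries were above all PBS libraries (log2 fold change 0.56 ± 0.11, adjusted p = 0.000733). Scap (ENSMUSG00000032485, chromosome 9, 110158229 to 110214024), the sterol sensor and escort, also rose, from 96.85, 97.2 and 86.9 to 128, 146, 139 and 131 CPM (log2 fold change 0.54 ± 0.10, adjusted p = 0.000323). Its exons share 53 bases with those of Ptpn23 on the opposite strand, which also rose (log2 fold change 1.13). By contrast Srebf1, whose products favour fatty acid genes, had 85.8, 69.3 and 74.9 CPM after PBS and 80.3, 86, 87.1 and 85.5 CPM after TNF, with PBS replicate 1 inside the TNF range. Its exons share 114 bases with those of Rai1 on the opposite strand, which fell (log2 fold change -1.435). The log2 fold change was 0.14 ± 0.10 with a 95% interval of -0.12 to 0.41 (adjusted p = 0.241), and the sign of this estimate flipped with scaling by total counts (-0.015).

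The INSIG genes moved in opposite directions. Insig1 (ENSMUSG00000045294, chromosome 5, 28276315 to 28283668), itself a target of the SREBPs, had 121, 76.15 and 98.1 CPM in the PBS libraries and 138, 172, 152 and 173.5 CPM in the TNF libraries, with all TNF libraries higher (log2 fold change 0.69 ± 0.15, adjusted p = 0.00106). Insig2 (ENSMUSG00000003721, chromosome 1, 121181760 to 121260400) had 26.8, 21.9 and 21 CPM after PBS and 15.3, 15.8, 15.4 and 12.4 CPM after TNF, with all TNF libraries lower (log2 fold change -0.65 ± 0.15, adjusted p = 0.00145). Within a library, the ratio of Insig1 to Insig2 counts was 4.51, 3.47 and 4.67 in the PBS libraries and 8.99, 10.9, 9.85 and 14 in the TNF libraries. On the log2 scale the mean ratio was 2.06 ± 0.23 (SD, n = 3) and 3.43 ± 0.27 (SD, n = 4), a difference of 1.36 (exact permutation p = 0.0286, two-sided, adjusted over 3 ratios 0.0286). This p is the smallest that the 35 splits of 7 libraries can give, and a ratio within a library does not depend on scaling.

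The same comparison was made for the other pairs of related factors. The ratio of Srebf1 to Srebf2 counts was 0.294, 0.3 and 0.323 in the PBS libraries and 0.22, 0.222, 0.233 and 0.237 in the TNF libraries. On the log2 scale the difference was -0.42 (exact permutation p = 0.0286, adjusted 0.0286). For the LXR genes, the ratio of Nr1h3 to Nr1h2 counts was 0.117, 0.152 and 0.208 after PBS and 0.0323, 0.023, 0.0352 and 0.0269 after TNF, a log2 difference of -2.42 (exact permutation p = 0.0286, adjusted 0.0286). In each of the 3 pairs the PBS and TNF values did not overlap. The pairs were chosen with the results of their genes known, and the genes of the Insig and LXR pairs were already called in opposite directions, so these p-values are no independent support. A ratio shows that the genes of a pair changed unequally and not which of them changed.

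**Figure D3:**
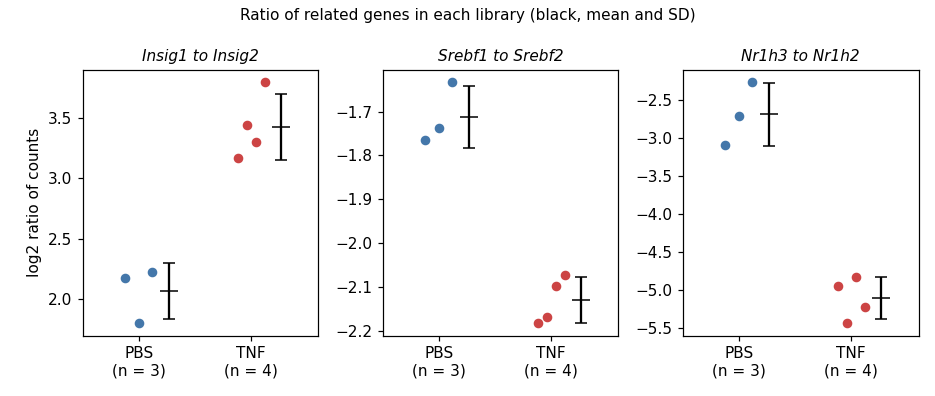
log2 ratio of counts for Insig1 to Insig2, Srebf1 to Srebf2 and Nr1h3 to Nr1h2. Each point is a library (3 PBS, 4 TNF), with the mean and SD in black and a separate vertical scale for each pair. The groups do not overlap in any pair, and the gap is widest for the LXR genes (-2.69 against -5.11 on average).

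Of the 5 genes of sterol transfer, efflux and the LXRs, 2 were higher (40%), 1 lower (20%) and 2 not called. Among all genes tested, 29.5% were higher and 30.1% lower. Nr1h3 (ENSMUSG00000002108, chromosome 2, 91014394 to 91033417), which encodes LXR alpha, had 5.07, 6.26 and 7.48 CPM in the PBS libraries and 2.015, 1.59, 1.98 and 1.7 CPM in the TNF libraries. All TNF libraries were below all PBS libraries (log2 fold change -1.78 ± 0.28, adjusted p = 9.44e-05), with low counts of 346 in the PBS libraries together and 126 in the TNF libraries. Its exons share 256 bases with those of Acp2 on the opposite strand, which had a log2 fold change of -0.38 (adjusted p = 0.0295). Nr1h2 (ENSMUSG00000060601, chromosome 7, 44199036 to 44203406), which encodes LXR beta, had 43.45, 41.1 and 35.9 CPM after PBS and 62.4, 69.1, 56.2 and 63.35 CPM after TNF, with all TNF libraries higher (log2 fold change 0.64 ± 0.11, adjusted p = 0.000218). Per kb of the canonical transcript, Nr1h2 exceeded Nr1h3 in both groups, with 19.1 ± 1.84 against 2.96 ± 0.568 CPM per kb after PBS and 29.9 ± 2.505 against 0.859 ± 0.0982 after TNF.

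The ABC transporters Abca1 and Abcg1 export cholesterol to lipoprotein particles and are known LXR targets. Abcg1 rose from 5.07, 3.26 and 4.51 to 8.84, 7.43, 6.48 and 8.77 CPM (log2 fold change 0.88 ± 0.24, adjusted p = 0.00562). Abca1 had 15.7, 21.2 and 19.35 CPM in the PBS libraries and 21.3, 10.3, 11 and 15.25 CPM in the TNF libraries. TNF replicate 1 was the highest library of all and TNF replicates 2 and 3 were the lowest, so the groups overlap (log2 fold change -0.38 ± 0.23, adjusted p = 0.175). Without TNF replicate 1, Abca1 was called lower (-0.63, adjusted p = 0.00841). Stard4, which encodes a cytosolic carrier of cholesterol, had 106 ± 21.65 and 90.1 ± 10.02 CPM and was not called (log2 fold change -0.23 ± 0.14, adjusted p = 0.158), although it passed the threshold without PBS replicate 2 (-0.38, 0.0284).

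Of the 5 genes of fatty acid synthesis, 1 was higher (20%), 2 were lower (40%) and 2 were not called. Among all genes tested, 29.5% were higher and 30.1% lower. The 2 genes of this group that changed by at least 2-fold went in opposite directions. Scd2 (ENSMUSG00000025203, chromosome 19, 44281613 to 44295303) encodes a stearoyl-CoA desaturase, which makes monounsaturated fatty acids. It had 167, 81.4 and 107 CPM in the PBS libraries and 40.02, 31, 45.2 and 39.3 CPM in the TNF libraries. The PBS libraries differed among themselves by up to 2.05-fold, yet the lowest of them was above every TNF library (log2 fold change -1.61 ± 0.22, adjusted p = 0.000105). Scd1, the desaturase gene best known from liver and also singled out after its values were seen, did not pass the filter on low counts (59 counts in the PBS libraries together and 20 in the TNF libraries). Elovl6 (ENSMUSG00000041220, chromosome 3, 129326004 to 129432144), which encodes the elongase that makes stearate from palmitate, rose from 36.8, 40.1 and 32.2 to 66.7, 69.2, 80.05 and 75.5 CPM, without overlap (log2 fold change 1.00 ± 0.11, adjusted p = 4.88e-06).

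Of the genes that supply and build palmitate, Acly was lower and Acaca and Fasn did not pass the test. Acly (ENSMUSG00000020917, chromosome 11, 100367165 to 100440756), which encodes the ATP citrate lyase that makes cytosolic acetyl-CoA, had 272, 207 and 202 CPM after PBS and 153, 159, 180.0 and 168.5 CPM after TNF. All TNF libraries were lower (log2 fold change -0.46 ± 0.12, adjusted p = 0.00473). Acaca, the acetyl-CoA carboxylase, had 34.2 ± 6.58 and 28.7 ± 6.49 CPM, and Fasn, the fatty acid synthase, had 224 ± 36.7 and 197 ± 14.2 CPM, with overlapping ranges in both. Their log2 fold changes were -0.25 ± 0.18 and -0.19 ± 0.12, with 95% intervals of -0.71 to 0.21 and -0.50 to 0.12 (adjusted p = 0.246 and 0.195). Fasn passed the threshold without PBS replicate 2 (-0.32, adjusted p = 0.0431).

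Among the PBS libraries, many of the 33 genes shared an order. For 15 of the 33 genes (45.5%), PBS replicate 1 was the highest and PBS replicate 2 the lowest, which was so for 12.5% of all genes tested. PBS replicate 1 was above PBS replicate 2 for 28 genes (84.8%, against 51.3% of all genes), and the median ratio of the 2 libraries was 1.29 (against 1.01). The ratio was largest for Idi1 and Scd2 (2.05 in both), Msmo1 (1.88), Cyp51 (1.87) and Sqle (1.73). For Fdps, Nr1h3, Abca1, Elovl6 and Scap it was below 1. PBS replicate 1 was also the library with the highest sum of goblet cell markers (20555 CPM, against 11176 and 11446), and its part in this order was not tested. The median coefficient of variation of the 33 genes was 17.2% among PBS and 10.7% among TNF libraries, and for all genes tested it was 14.5% and 15.8%. This order was noticed in the data and is given as a description without a test.

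**Figure D4:**
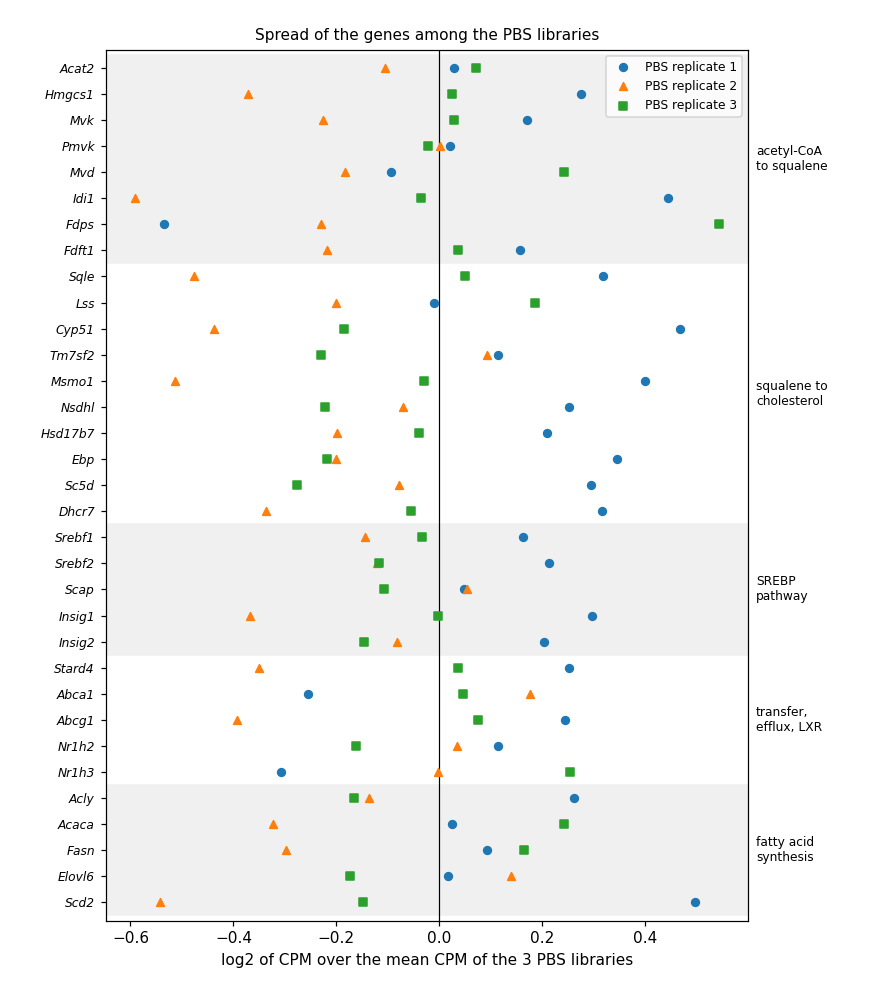
log2 of the CPM of each PBS library over the mean of the 3 PBS libraries, for the 33 genes in the order of the other plots. PBS replicate 1 (circles) lies to the right of PBS replicate 2 (triangles) for 28 of 33 genes.

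Levels of different genes were compared per kb of the canonical transcript. After PBS the highest were Hmgcs1 (57.9 ± 12.7 CPM per kb, SD, n = 3), Acly (51.5 ± 8.88), Srebf2 (49.6 ± 6.83) and Insig1 (35.9 ± 8.135), and the first 3 of these do not differ beyond their spread. After TNF the order was Srebf2 (73.1 ± 2.33 CPM per kb, SD, n = 4), Insig1 (58 ± 6.22), Hmgcs1 (40.7 ± 4.99) and Acly (37.45 ± 2.67), of which the last 2 do not differ beyond their spread. Msmo1 and Sc5d stood at 16.3 ± 5.05 and 12.9 ± 2.65 CPM per kb after PBS and at 36.3 ± 2.95 and 30.3 ± 3.05 after TNF. The lowest after PBS were Abcg1 (0.733 ± 0.159), Fdps (1.645 ± 0.664) and Abca1 (1.83 ± 0.272).

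Other genes of the same pathways were taken from lists and counted in full. Of 66 genes, 60 were tested, of which 15 were higher (25%), 24 lower (40%) and 21 not called, against 29.5% and 30.1% of all genes. Among the other sterol synthesis genes, Acss2, the acetyl-CoA synthetase that uses acetate, fell from 46.85, 54.2 and 57.2 to 13.3, 8.96, 12.05 and 6.74 CPM (log2 fold change -2.36 ± 0.19, adjusted p = 3.02e-07). Of 10 isoprenoid branch genes, 3 were higher (30%) and 3 lower (30%), near the shares of all genes. The subunits of the enzyme that makes dolichol phosphate precursors for protein glycosylation moved apart, with log2 fold changes of 1.41 ± 0.12 for Nus1 and -0.82 ± 0.15 for Dhdds (adjusted p = 3.69e-07 and 0.000341).

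Of 10 genes of SREBP processing and sterol sensing, 2 were higher (20%) and 3 lower (30%), against 29.5% and 30.1% of all genes. Mbtps1, which encodes the site-1 protease that cuts SREBPs in the Golgi, fell from 125 ± 5.37 to 65.2 ± 5.87 CPM (log2 fold change -0.94 ± 0.10, adjusted p = 2.8e-06). Rnf139, an endoplasmic reticulum ubiquitin ligase, had a log2 fold change of 0.75 ± 0.12 (adjusted p = 0.00012). Of 10 LXR partners and targets, 1 was higher (10%) and 6 were lower (60%), against 29.5% and 30.1% of all genes tested. Together 70% were called, against 59.6% of all genes tested. The higher gene was Mylip, an LXR target that encodes a ubiquitin ligase acting on lipoprotein receptors (13.8 ± 0.857 and 24.3 ± 3.895 CPM, log2 fold change 0.82 ± 0.15, adjusted p = 0.000325). Ncor1, a corepressor of nuclear receptors, was among the lower ones (-0.67 ± 0.10, adjusted p = 4.49e-05). Arl4c, an LXR target that was below the minimum mean for naming and was added after its values were seen, changed more at a low level (3.76 ± 0.95 and 0.615 ± 0.172 CPM, -2.60 ± 0.42, adjusted p = 0.00011).

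Of 14 genes of cholesterol uptake, storage and oxidation, 11 were tested, of which 4 were higher (36.4%) and 5 lower (45.5%). The shares of all genes tested were 29.5% and 30.1%. Soat2, which esterifies cholesterol in enterocytes and hepatocytes, had 8.16, 8.4 and 8.17 CPM after PBS and 19.6, 25.3, 17.4 and 16.8 CPM after TNF (log2 fold change 1.26 ± 0.17, adjusted p = 2.81e-05), a rise beside the lower sums of enterocyte markers given above. Lrp1, a large receptor of lipoproteins and other ligands, fell from 26.6, 26.5 and 52.7 to 6.6, 6.54, 9.37 and 3.21 CPM (log2 fold change -2.44 ± 0.35, adjusted p = 0.000207). Of 17 other genes of fatty acid synthesis and desaturation, 15 were tested, of which 4 were higher (26.7%) and 5 lower (33.3%). Mlxipl, which encodes the carbohydrate-responsive factor ChREBP, fell from 25, 27.8 and 46.3 to 7.61, 5.835, 3.855 and 6.22 CPM (log2 fold change -2.49 ± 0.25, adjusted p = 2.45e-06). Fads1, a desaturase of polyunsaturated fatty acids, fell from 42.8, 41.8 and 48 to 11, 6.955, 11.35 and 10.1 CPM (log2 fold change -2.16 ± 0.16, adjusted p = 7.29e-08), the same direction as for Scd2. The largest estimate in this list was that of Me1, the cytosolic malic enzyme that supplies NADPH, which lay just under the minimum mean for naming and was added after its values were seen. Me1 had 0.989, 0.865 and 0.371 CPM after PBS and 14.4, 15.2, 22.3 and 15.1 CPM after TNF, with all TNF libraries higher (log2 fold change 4.50 ± 0.31, adjusted p = 3.93e-08).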

How the data were processed

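PCs of 3 PBS and 4 TNF mice were compared by bulk RNA-seq of total RNA with single-end reads. The authors deposited raw counts, whole numbers of reads per Ensembl gene with 1 column per library. The submitters' processing notes name FastQC, Trimmomatic 0.39, STAR 2.7.10a, DESeq2 and the builds mm10 and mm39. No counting program, annotation or strand setting was found in the sources used here, and counts of the 19 genes that share exon bases with another annotated gene are uncertain. Symbols, GRCm39 coordinates and canonical transcript lengths came from GENCODE M39 by identifier (98.8% matched), and promoter sequences from RefSeq.

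TNF was tested against PBS with edgeR 4.0.16 under R 4.3.3 (two-sided quasi-likelihood F test, robust, filterByExpr, TMM, no covariates), with Benjamini-Hochberg adjustment over all 14329 genes. An adjusted p under 0.05 is a call. SE is the log2 fold change over the root of F, and 95% intervals use the 5 residual degrees of freedom. The script was tested on simulated data. The genes, lists and ratios were chosen with earlier results of these data known. All 33 genes are named, and from each further list the 2 called genes with the largest change and a mean of at least 10 CPM. Of these, 1 gene is not reported here. Replicates differed by more than sampling noise (lowest chi-square over its degrees of freedom 16.4). The alternatives were 2 other scalings and TMM leaving out Lyz1 and alpha-defensin genes, no filter, a filter of 1 CPM in 3 libraries, DESeq2 1.42.0, a 2-fold rule, the replicate number as a block and each library left out.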

Additional observations from a re-analysis of the deposited data

Results flagged for a closer look

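Within the TNF group, the highest and the lowest of the 4 libraries were compared with the others for 36 values, the 33 genes and 3 ratios. A library stood apart for 1 of these 36 values. Chance gives about 1 in every 20 values looked at, so 1 flag is not more than chance gives. For Insig2, TNF replicate 4 had 12.4 CPM and the other TNF libraries 15.3 to 15.8 CPM, a gap of 0.863 of the range. Without this library, Insig2 had a log2 fold change of -0.59 (edgeR adjusted p = 0.00361), against -0.65 with it.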

How the results depend on the processing

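Under 14 alternative fits, the number of genes called higher among the 33 ran from 10 (scaling by total counts) to 17 (without PBS replicate 1) against 13, and the number called lower from 7 (without PBS replicate 1) to 10 (without PBS replicate 2) against 8. Leaving out a library in turn gave 13 to 17 higher and 7 to 10 lower. Requiring a change of at least 2-fold left 5 higher and 4 lower. The DESeq2 test gave 13 and 8. No call changed under any of these fits for 21 genes, of which 18 also kept their sign. At least 1 call was lost for 4 genes (Hmgcs1, Fdps, Fdft1 and Lss) and gained for 8. The estimate changed sign for the other 3 of these 21, none of them called. These were Srebf1 with scaling by total counts (-0.015), Ebp without PBS replicate 1 (0.18) or TNF replicate 1 (0.051), and Pmvk without TNF replicate 1 (0.013). Over the libraries left out in turn, Ebp ran from -0.14 to 0.18 and Pmvk from -0.20 to 0.013. With the replicate number as a block, 13 genes were higher and 8 lower, and over all genes 3553 and 3578 were called. Deviations from the group means correlated at -0.299, -0.0314 and -0.174 between libraries of the same number, so the numbers are not treated as pairs, and no library correlated best with its own number. Leaving out a library, the log2 difference ran from 1.23 to 1.45 for Insig1 to Insig2, from -0.446 to -0.379 for Srebf1 to Srebf2 and from -2.62 to -2.20 for Nr1h3 to Nr1h2. Adding 0.5 to the counts gave the same p for each ratio, which follows where the groups stay apart and is no further support. Without a library, none could pass the threshold, because the smallest p is then 0.0667 or 0.1. Depth limits Fdps, Nr1h3 and Tm7sf2 most, with a lowest library of 24, 26 and 49 counts.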
